A study of Mus musculus with 15 samples.

Results

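Neurotrophins and their receptors were described across 3 groups of mouse cortex through 8 genes: Bdnf, Ntf3, Ntrk2, Ntrk3, Ngfr, Sort1, Gdnf and Gfra1. The members were all array features whose single gene symbol was one of these names. Of the 8 genes, 7 had a feature, and together they held 51 of the 34479 features with values, under 9 of 20180 transcript IDs. No feature carried the symbol Ntf3 in the annotation used here, so neurotrophin-3 was not analysed here. Bdnf had 11 features, Ngfr 11, Ntrk2 21, Sort1 4, Gfra1 2, and Ntrk3 and Gdnf 1 each.

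Each of the 15 arrays measured RNA of brain cortex from adult female mice. Group 1 was sedentary mice of the senescence-resistant strain SAMR1 (replicates 1 to 5), group 2 was sedentary mice of the senescence-accelerated strain SAMP8 (replicates 6 to 10), and group 3 was exercised SAMP8 mice (replicates 11 to 15). The labels name no allele, drug or exercise protocol, and there was no exercised SAMR1 group, so exercised SAMP8 against SAMR1 holds strain and exercise together and the parts cannot be told apart. The labels call the arrays biological replicates. They do not say whether an array held 1 mouse or a pool, and if replicates were technical, p-values measure only that spread. The values are Cy3 spot intensities, given here as log2 intensity; the median of all features was 7.70 and the lower quartile 6.17 on that scale.

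Neurotrophins are secreted proteins that keep neurons alive and tune their synapses. Each mature factor binds a Trk receptor tyrosine kinase: Bdnf acts through TrkB, the product of Ntrk2, and neurotrophin-3 mainly through TrkC, the product of Ntrk3. Both receptor genes also make truncated forms that lack the kinase, and astrocytes are a main source of truncated TrkB in the adult brain. The p75 receptor, encoded by Ngfr, binds all neurotrophins, and together with sortilin, encoded by Sort1, it binds the uncleaved proneurotrophins. Gdnf belongs to another ligand family and signals through its anchored co-receptor Gfra1.

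Markers of cortical neurons were present. All 6 measured excitatory neuron markers and all 6 inhibitory neuron markers lay above the array median on every array, and no marker of any list was at 0. Above the median on every array were also 4 of 5 striatal, 4 of 6 thalamic and hypothalamic, 3 of 6 hippocampal and 7 of 8 meningeal markers, so these lists do not separate cortex from its neighbours. Correlations between arrays ran from 0.976 to 0.991 and no arrays were identical. Marker scores differed between the groups for some other cell types. The score of 8 meningeal markers (the mean over genes of the log2 value minus that gene's mean over all arrays) ran from -0.56 to -0.07 in SAMR1, from -0.03 to 0.39 in sedentary SAMP8 and from 0.01 to 0.36 in exercised SAMP8. The score of 5 striatal markers ran from -0.14 to 0.55 in SAMR1, from 0.09 to 0.49 in sedentary SAMP8 and from -0.69 to 0.07 in exercised SAMP8. The score of 6 hippocampal markers ran from -0.25 to -0.08 in SAMR1 and from -0.01 to 0.17 in sedentary SAMP8. In exercised SAMP8 it ran from -0.12 to 0.30. In whole tissue, fewer cells of a type and less RNA per cell cannot be told apart.

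Across the 51 features, the differences past the threshold were all in comparisons with SAMR1, and most belonged to truncated TrkB. In sedentary SAMP8 against SAMR1, 2 of 51 features were higher at an adjusted p under 0.05, 1 of Ngfr and 1 of truncated Ntrk2, and 0 were lower. Over all features 2.61% were called in that comparison and 1.49% were higher, so the share among the neurotrophin features was close to the background. That count of 2 became 0 without any single one of SAMR1 replicates 1, 4 and 5, SAMP8 replicates 6, 7 and 8 and exercised replicates 13 and 15, and 0 with only those groups in the fit. It became 1 without SAMR1 replicate 2 or 3, 4 without SAMP8 replicate 10 or exercised replicate 12, 6 without the dimmest 30% of features and 7 with a trended and robust prior. In exercised SAMP8 against SAMR1, 5 of 51 features were higher, all of them truncated Ntrk2, against 3.28% of all features called and 1.89% higher. That count of 5 became 3 without SAMR1 replicate 4 or 5 or exercised replicate 11 or 12, 2 with only those groups in the fit, and 9 without the dimmest features or with the trended prior. In exercised against sedentary SAMP8, 0 of 51 passed in limma, with 2 at an unadjusted p under 0.05 (6.64% of all features) and a smallest adjusted p of 0.601, and 0% of all features passed. The features of one transcript ID share a target and can be repeat spots of one probe, so their counts are not counts of independent findings.

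**Figure D1:**
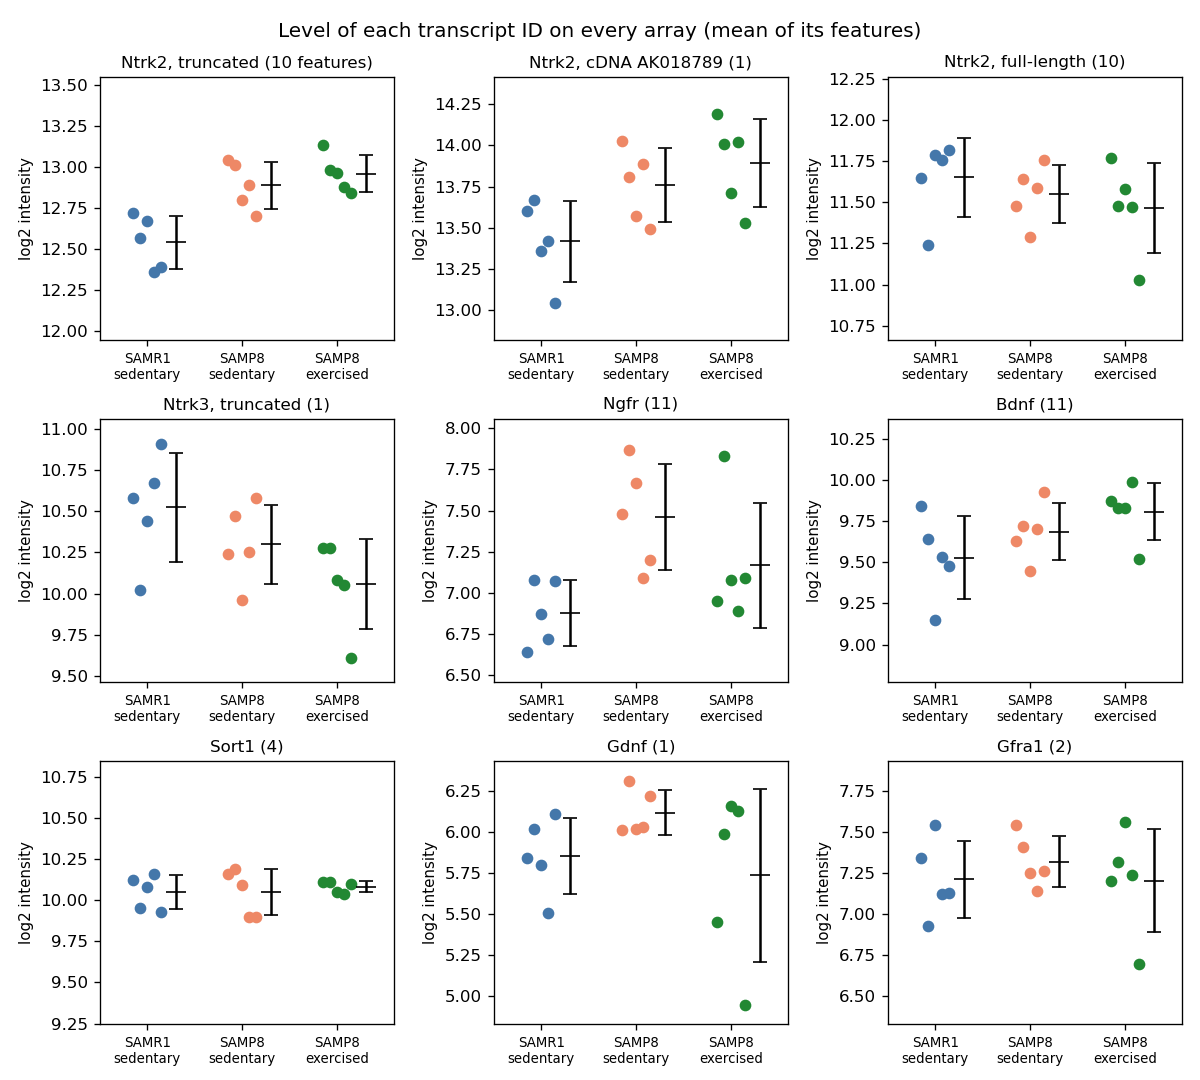
Log2 intensity of each transcript ID (the mean of its features) on every array, by group; points are arrays, and the dash and bar give the mean and SD of 5 arrays. Each panel has its own y axis. For truncated Ntrk2 the exercised SAMP8 arrays, between 12.84 and 13.13, all lie above the SAMR1 arrays, between 12.36 and 12.72.

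Bdnf, the main activity-regulated neurotrophin of the cortex, did not pass in any comparison. The mean of its 11 features was 9.84, 9.64, 9.15, 9.53 and 9.48 on the SAMR1 arrays, 9.63, 9.72, 9.45, 9.70 and 9.93 on the sedentary SAMP8 arrays, and 9.87, 9.83, 9.83, 9.99 and 9.52 on the exercised SAMP8 arrays. The groups overlapped throughout, and SAMR1 replicate 3 was the lowest array. The group means were ordered from SAMR1, 9.53 ± 0.25 (SD, n = 5), through sedentary SAMP8, 9.69 ± 0.17, to exercised SAMP8, 9.81 ± 0.17, and no neighbours in this order differed beyond their spread. The log2 difference was 0.16 (95% interval -0.11 to 0.43) for sedentary SAMP8 minus SAMR1, with an adjusted p of 0.622. For exercised minus sedentary SAMP8 it was 0.12 (-0.15 to 0.39), with an adjusted p of 0.881. For exercised SAMP8 minus SAMR1 it was 0.28 (0.01 to 0.55), with an adjusted p of 0.258. All 11 Bdnf features had a positive difference in each of these 3 comparisons, none passed, and the lowest adjusted p among them was 0.139.

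Bdnf is transcribed from several promoters, and RefSeq gives it 7 promoter windows in build GRCm38.p6. One of them holds TCACGTCA, the calcium and cyclic AMP responsive element known from the activity-dependent Bdnf promoter in rodents, and CATATG, the core of a site bound there by USF factors. It is shown because regulators of that promoter and activity-induced genes were measured beside Bdnf. The 250 bases before the start, chr2:109692186-109692435 on the plus strand, read as follows, with the 2 motifs in capitals.
Bdnf promoter: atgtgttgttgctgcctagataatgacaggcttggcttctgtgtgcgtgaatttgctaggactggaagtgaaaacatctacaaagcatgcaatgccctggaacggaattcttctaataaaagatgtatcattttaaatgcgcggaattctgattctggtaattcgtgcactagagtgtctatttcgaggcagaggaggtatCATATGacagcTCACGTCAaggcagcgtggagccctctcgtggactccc
CATATG begins 49 bases and TCACGTCA 38 bases before the start, with 5 bases between them. On either strand, TCACGTCA was found in 1 of the 7 Bdnf windows and in 0.441% of 32851 windows of all genes, and CATATG in 2 of 7 and in 3.91%. The palindromic element TGACGTCA was in 0 of the 7 Bdnf windows (1.79% of all windows), and the E-box CACGTG in 0 of 7 (7.15%). No window of Ntrk2, Ngfr, Gdnf or Gfra1 held any of the 4 motifs, Ntf3 had CACGTG in 1 of 2 windows, and Ntrk3 and Sort1 had no window in the table. A match describes the letters and does not show that a factor binds.

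Among 21 measured regulators of Bdnf transcription, 1 fell in SAMP8 by the brightest feature of each gene. Usf1, a helix-loop-helix factor that binds E-boxes, read 9.65, 10.44, 9.88, 9.73 and 9.60 in SAMR1. It read 8.28, 8.54, 8.57, 8.73 and 8.14 in sedentary SAMP8, and 8.40, 8.28, 8.39, 8.24 and 8.33 in exercised SAMP8. Every SAMP8 array lay below every SAMR1 array. Usf1 fell by 1.41 ± 0.15 (SE) on the log2 scale in sedentary SAMP8 (adjusted p = 2.76e-05) and by 1.53 ± 0.15 in exercised SAMP8 (adjusted p = 1.19e-05); both comparisons use the same SAMR1 arrays, and Usf1 had a single feature. Over all genes, 3.03% passed in the first comparison (1.18% lower) and 4.26% in the second (1.45% lower). Its partner Usf2 had -0.16 and -0.28, with adjusted p of 0.382 and 0.0748. Npas4, an activity-induced factor that acts on Bdnf, had 0.67 ± 0.31 in sedentary SAMP8 against SAMR1 (adjusted p = 0.344) and -0.65 ± 0.31 in exercised against sedentary SAMP8 (adjusted p = 0.711). The deacetylase gene Hdac2 had 0.26 ± 0.15 in the latter (adjusted p = 0.751). With the mean of all features of a gene, the list gene Mef2c also passed as lower in sedentary SAMP8 than in SAMR1. The median of the list was -0.02, -0.07 and -0.03 in the 3 comparisons, in the order used above, against 0.019, 0.020 and 0.038 over all genes.

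Bdnf was set against the activity-induced genes, since both are known to follow neuronal activity. Of 27 measured activity-induced genes 0 passed in limma in any comparison; 2, 0 and 0 had an unadjusted p under 0.05, against 14.3%, 7.08% and 18.2% of all genes. Their median difference was 0.42 in sedentary SAMP8 against SAMR1, with 22 of 27 positive, -0.11 in exercised against sedentary SAMP8, and 0.21 in exercised SAMP8 against SAMR1. The immediate early gene Fos had 1.39 ± 0.59 in the first (adjusted p = 0.283), and its SD was 1.71 in SAMR1 against 0.11 in sedentary SAMP8. In the second, the growth regulator Btg2 had -0.54 ± 0.37 (adjusted p = 0.775). In the third, the phosphatase gene Dusp6 had 0.60 ± 0.29 (adjusted p = 0.283) and the factor gene Fosl2 0.40 ± 0.20 (adjusted p = 0.309). The mean score of the list was 0.53, 0.64, -1.0, -0.86 and -0.54 on SAMR1 replicates 1 to 5, so the SAMR1 arrays spanned the whole range and 3 of them lay below every SAMP8 array.

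Over 15 arrays, the brightest Bdnf feature and this score had a Pearson r of 0.30 (permutation p = 0.281, adjusted over the 7 measured members 0.656) and a Spearman rho of -0.018 (permutation p = 0.954, adjusted 0.954). Without SAMR1 replicates 3 and 4, the arrays farthest from the median score, r was -0.24, so the sign of the relation rested on them. With values centred within each group r was 0.32 (permutation p = 0.327). With the mean of all features of each gene, both for Bdnf and for the genes of the score, r was 0.53 (permutation p = 0.0443, adjusted 0.310). For the other 6 measured members r ran from -0.47 for Ntrk3 to 0.43 for Ntrk2, both with an adjusted p of 0.393. No member passed in any of these settings.

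**Figure D2:**
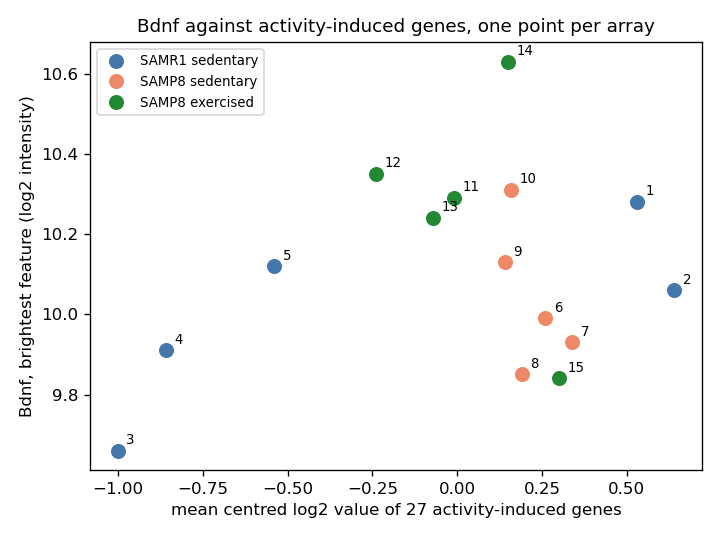
Brightest Bdnf feature (log2 intensity) against the mean centred log2 value of 27 activity-induced genes, one point per array with its replicate number, coloured by group. SAMR1 replicates 3 and 4 sit at scores of -1.0 and -0.86, apart from the other arrays.

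Gdnf, the founding ligand of its family, was dim. Its 1 feature lay under the lower quartile of all features on 13 of 15 arrays, with 5.84, 6.02, 5.80, 5.51 and 6.11 in SAMR1, 6.01, 6.31, 6.02, 6.03 and 6.22 in sedentary SAMP8, and 5.45, 5.99, 6.16, 6.13 and 4.95 in exercised SAMP8. The groups overlapped, and the exercised group had the widest spread, set mainly by replicates 15 and 11. The differences were 0.26, -0.38 and -0.12, with adjusted p of 0.601, 0.783 and 0.820. Values this close to the dim end of the array limit what can be read from Gdnf.

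Ntrk2 gave the results past the threshold that concern the most features. Its features fall under 3 transcript IDs: 10 under NM_001025074, which RefSeq describes as the full-length receptor, 10 under NM_008745, the truncated receptor without the kinase, and 1 under the cDNA AK018789. The assignment rests on these IDs, and probe sequences were not used here. The truncated features averaged 12.72, 12.57, 12.67, 12.36 and 12.39 in SAMR1. They averaged 13.04, 13.01, 12.80, 12.89 and 12.70 in sedentary SAMP8, and 13.13, 12.98, 12.96, 12.88 and 12.84 in exercised SAMP8. All exercised SAMP8 arrays lay above all SAMR1 arrays, and in sedentary SAMP8 only replicate 10 fell below the highest SAMR1 array, replicate 1.

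Truncated Ntrk2 rose by 0.42 ± 0.094 (SE) on the log2 scale in exercised SAMP8 against SAMR1, which is 1.33-fold, with an adjusted p of 0.0224 over 20180 transcript IDs, of which 3.53% passed and 5.35% had groups without overlap. In sedentary SAMP8 against SAMR1 the difference was 0.35 ± 0.094, or 1.27-fold, and its adjusted p of 0.0695 missed the threshold (2.77% of transcript IDs passed). These comparisons share the SAMR1 arrays. Exercised minus sedentary SAMP8 was 0.07 (95% interval -0.13 to 0.27, adjusted p = 0.918). Over all 10 SAMP8 arrays against SAMR1, a contrast added after the data were seen, the difference was 0.38 ± 0.082 (adjusted p = 0.0131). The exercised call was lost without SAMR1 replicate 4 (0.37, adjusted p = 0.0591), SAMR1 replicate 5 (0.38, 0.0669), exercised replicate 11 (0.37, 0.0616) or exercised replicate 13 (0.41, 0.0523), and in a fit of those 2 groups alone (adjusted p = 0.0507). The sedentary call was gained without SAMR1 replicate 1 (0.39, adjusted p = 0.0489) or SAMP8 replicate 10 (0.39, 0.0493).

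Feature by feature, all 10 truncated features had a positive difference in both comparisons with SAMR1. They ran from 0.29 to 0.51 in sedentary SAMP8, where 1 passed, and from 0.37 to 0.47 in exercised SAMP8, where 5 passed. The feature that passed in sedentary SAMP8 was 0.51 ± 0.13 higher (adjusted p = 0.0453), with SAMR1 at 12.62, 12.44, 12.81, 12.17 and 12.28 and sedentary SAMP8 at 13.07, 13.14, 12.95, 12.86 and 12.81. The exercised feature with the smallest p was 0.41 ± 0.083 higher (adjusted p = 0.0119), with SAMR1 at 12.58, 12.52, 12.55, 12.36 and 12.33 and exercised SAMP8 at 12.97, 12.91, 12.86, 12.77 and 12.86. The groups were separate on these features, the first by under the last digit printed, between SAMR1 replicate 3 and SAMP8 replicate 10. Groups did not overlap for 5 of the 10 truncated features in sedentary SAMP8 against SAMR1 (4.41% of all features, 2.66% higher) and for 6 of 10 in exercised SAMP8 against SAMR1 (5.22%, 3.07% higher). Against SAMR1, all SAMP8 arrays together gave 7 of 10 truncated features higher, and 4.18% of all features were called there, 2.45% higher.

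Full-length Ntrk2 did not pass, and its differences had the opposite sign to those of the truncated form. Its features averaged 11.65, 11.24, 11.79, 11.76 and 11.82 in SAMR1, 11.48, 11.64, 11.29, 11.59 and 11.76 in sedentary SAMP8, and 11.77, 11.48, 11.58, 11.47 and 11.03 in exercised SAMP8. The groups overlapped, with SAMR1 replicate 2 and exercised replicate 15 lowest. All 10 features had a negative difference in each comparison and 0 passed in limma, with 0 of them at an unadjusted p under 0.05 (17.7% of all features in exercised SAMP8 against SAMR1). The mean differed by -0.10 (95% interval -0.40 to 0.20), -0.09 (-0.39 to 0.21) and -0.19 (-0.49 to 0.11), with adjusted p of 0.813, 0.929 and 0.536. The cDNA feature AK018789 read 13.60, 13.67, 13.36, 13.42 and 13.04 in SAMR1, 14.03, 13.81, 13.57, 13.89 and 13.49 in sedentary SAMP8, and 14.19, 14.01, 13.71, 14.02 and 13.53 in exercised SAMP8. Its differences were 0.34 ± 0.15, 0.13 ± 0.15 and 0.47 ± 0.15, with adjusted p of 0.317, 0.892 and 0.105, so it had the sign of the truncated features and did not pass.

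**Figure D3:**
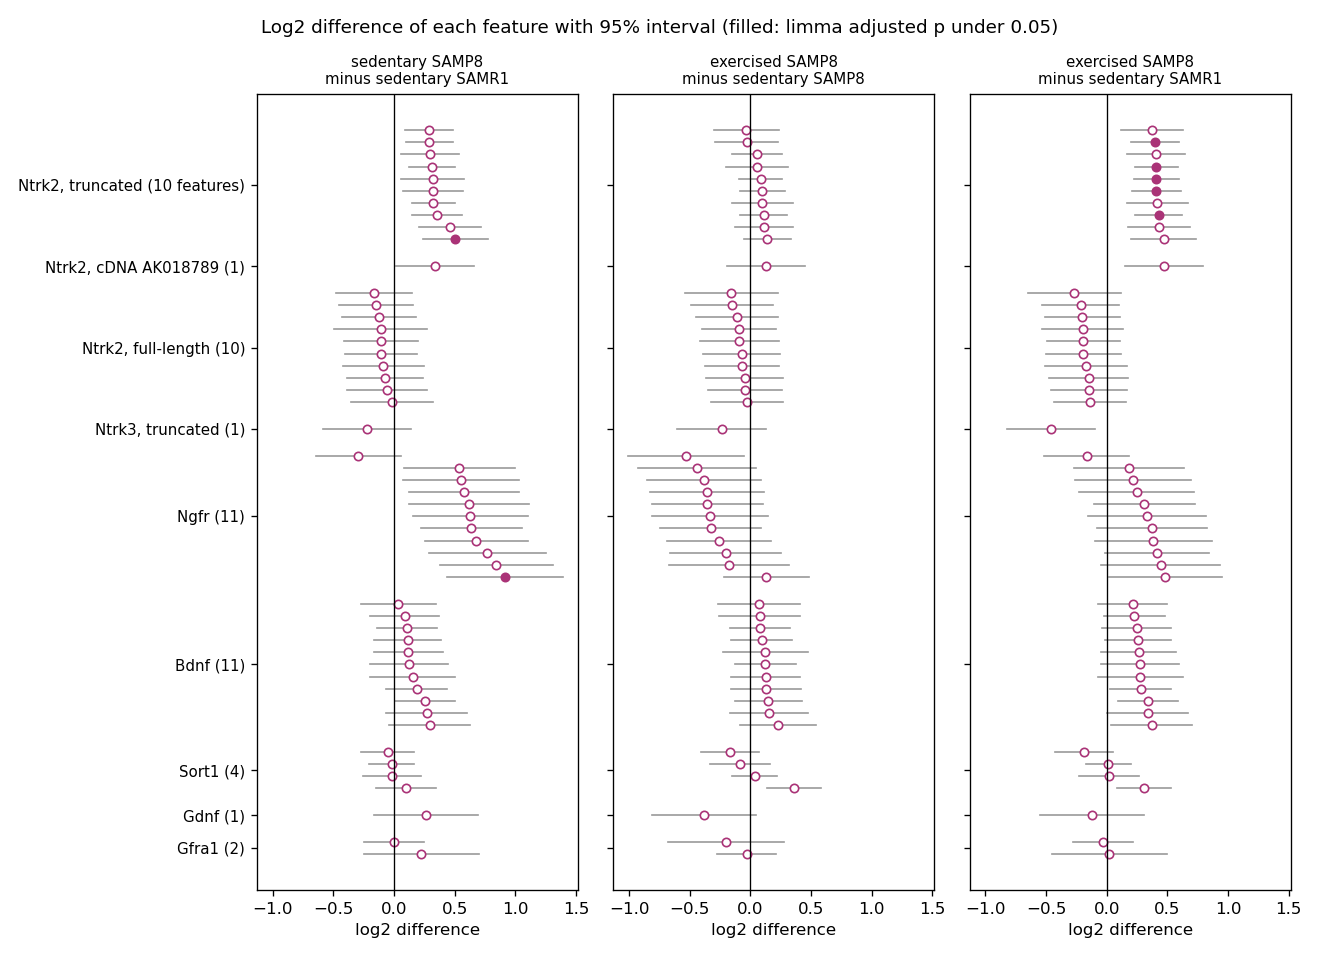
Log2 difference of each of the 51 features (circles) with its 95% interval (lines) in the 3 comparisons, grouped by transcript ID; filled circles passed at an adjusted p under 0.05. Truncated Ntrk2 features lie right of 0 in both comparisons with SAMR1, between 0.29 and 0.51 and between 0.37 and 0.47, and full-length features lie left of 0.

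The contrast between the forms was measured within each array as the mean of the truncated features minus the mean of the full-length features, a measure chosen after the data were seen. It was 1.07, 1.33, 0.87, 0.60 and 0.56 in SAMR1, 1.55, 1.37, 1.51, 1.30 and 0.95 in sedentary SAMP8, and 1.36, 1.50, 1.38, 1.41 and 1.80 in exercised SAMP8. All exercised arrays lay above all SAMR1 arrays, and sedentary SAMP8 replicates 9 and 10 lay within the SAMR1 range. The difference between exercised SAMP8 and SAMR1 was 0.60 (exact permutation p = 0.00794, the smallest that 5 against 5 arrays can give, adjusted over 3 comparisons 0.0238). Sedentary SAMP8 against SAMR1 gave 0.45 (exact permutation p = 0.0476, adjusted 0.0714), and without SAMR1 replicate 2 or SAMP8 replicate 10 it was 0.56 or 0.54, each with an adjusted exact permutation p of 0.0357. Exercised against sedentary SAMP8 gave 0.16 (exact permutation p = 0.341). A ratio within an array shows that the signals changed unequally and not which one changed.

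**Figure D4:**
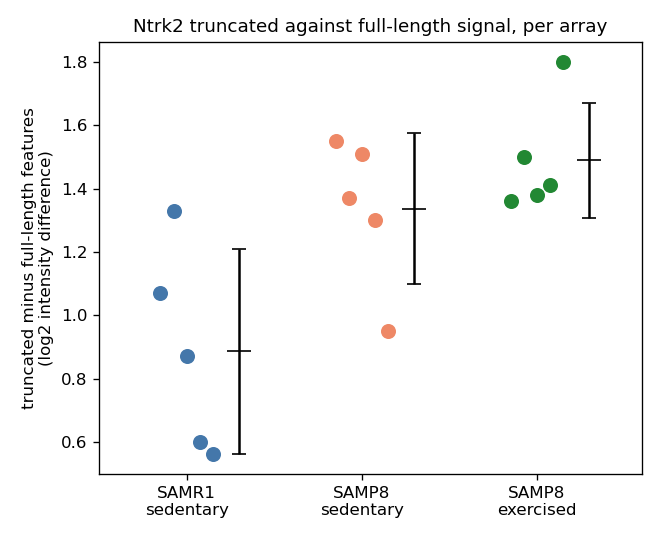
Truncated minus full-length Ntrk2 signal on each array (difference of log2 intensities), by group; points are arrays, and the dash and bar give the mean and SD of 5 arrays. The exercised SAMP8 arrays lie between 1.36 and 1.80 and the SAMR1 arrays between 0.56 and 1.33.

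Astrocyte markers were read beside truncated Ntrk2, which astrocytes are known to express. Of 7 markers, Gfap, the intermediate filament of reactive astrocytes, rose by 0.72 ± 0.14 in sedentary SAMP8 against SAMR1 (adjusted p = 0.00771), and the other 6 did not pass. There 4 of 7 were positive, and the median of the list was 0.04, against 0.019 over all genes. Fgfr3 had -0.17, Aldh1l1 -0.03 and Slc1a2 -0.01. In each of the other 2 comparisons 0 of 7 passed in limma, with 1 of 7 at an unadjusted p under 0.05. In exercised against sedentary SAMP8 that 1 was Aqp4, at -0.46 ± 0.16 (adjusted p = 0.618). Gfap had 0.48 ± 0.14 in exercised SAMP8 against SAMR1 (adjusted p = 0.0675), and over all SAMP8 arrays against SAMR1 it was higher by 0.60 ± 0.12 (adjusted p = 0.00751). The astrocyte score ran from -0.26 to 0.04 in SAMR1, from -0.04 to 0.13 in sedentary SAMP8 and from -0.09 to 0.14 in exercised SAMP8. The part of astrocytes in the Ntrk2 difference was not tested. The genes whose brightest feature was most like that of Ntrk2 over the 15 arrays, among 11932 searched, were Nadk2 (Pearson r = 0.92), Coa6 (0.91) and Cnksr3 (0.91); the brightest Ntrk2 feature is the cDNA feature.

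Ntrk3 was measured by 1 feature, under a transcript ID (NM_182809) that RefSeq describes as a truncated form of TrkC. It read 10.58, 10.02, 10.44, 10.67 and 10.91 in SAMR1, 10.24, 10.47, 9.96, 10.25 and 10.58 in sedentary SAMP8, and 10.28, 10.28, 10.08, 10.05 and 9.61 in exercised SAMP8. Exercised SAMP8 overlapped SAMR1 only through the low SAMR1 replicate 2, and sedentary SAMP8 overlapped SAMR1 also at replicates 7 and 10. The differences were -0.22 ± 0.17, -0.24 ± 0.17 and -0.46 ± 0.17, with adjusted p of 0.598, 0.819 and 0.160. Without SAMR1 replicate 2, exercised SAMP8 against SAMR1 was -0.59 with an adjusted p of 0.0497. The most similar genes over the 15 arrays were Ptchd1, Scn1a and Kdm8 (Pearson r = 0.92 each), of which Scn1a encodes a neuronal sodium channel.

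Ngfr, the p75 receptor, had the largest difference between the sedentary strains among the transcript ID means of the members, and 1 of its 11 features passed. The features averaged 6.64, 7.08, 6.87, 6.72 and 7.07 in SAMR1, 7.48, 7.87, 7.67, 7.09 and 7.20 in sedentary SAMP8, and 6.95, 7.83, 7.08, 6.89 and 7.09 in exercised SAMP8. Sedentary SAMP8 lay above SAMR1 on every array, by a narrow margin at replicate 9, and groups without overlap made up 4.45% of all transcript IDs in that comparison. Among exercised arrays replicate 12 stood alone at the level of the high sedentary SAMP8 arrays, and the other 4 lay within the SAMR1 range or just above it. The means were 6.88 ± 0.20 (SD, n = 5), 7.46 ± 0.33 and 7.17 ± 0.38. All lie below the median of all features, so this is a gene of low signal in cortex.

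The mean Ngfr difference in sedentary SAMP8 against SAMR1 was 0.59 ± 0.18 (SE), or 1.5-fold, with an adjusted p of 0.130 that missed the threshold. Without exercised replicate 12, which enters only through the shared estimate of the spread, the same difference had an adjusted p of 0.0449. Exercised minus sedentary SAMP8 was -0.29 (95% interval -0.69 to 0.10, adjusted p = 0.806), and exercised SAMP8 minus SAMR1 was 0.29 (-0.10 to 0.69, adjusted p = 0.440). By feature, 10 of 11 were positive in sedentary SAMP8 against SAMR1, all 10 at an unadjusted p under 0.05 (14% of all features), and 4 had groups that did not overlap (4.41% of all features, 2.66% higher). The feature that passed was 0.92 ± 0.23 higher, or 1.89-fold (adjusted p = 0.0435). It read 6.32, 7.01, 6.99, 6.48 and 6.62 in SAMR1, and 7.65, 8.09, 7.89, 7.24 and 7.12 in sedentary SAMP8, which are separate ranges. In exercised SAMP8 it read 6.98, 7.75, 7.11, 6.66 and 6.85, overlapping both other groups. The 1 feature with the opposite sign (-0.30) lay under the lower quartile of all features on 13 of 15 arrays.

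Some markers of other tissue were also higher in sedentary SAMP8 than in SAMR1. Of 8 meningeal markers, Lum, a proteoglycan of fibroblasts, rose by 0.70 ± 0.14 in sedentary SAMP8 against SAMR1 (adjusted p = 0.0114), and 7 of 8 were positive. Of 6 markers of thalamus and hypothalamus, the transcription factor gene Zic1 rose by 0.97 ± 0.24 there (adjusted p = 0.0430), and that score ran from -0.35 to -0.01 in SAMR1, from -0.01 to 0.58 in sedentary SAMP8 and from -0.34 to 0.12 in exercised SAMP8. Of 6 choroid plexus markers the water channel gene Aqp1 rose by 1.01 ± 0.25 (adjusted p = 0.0388), and 6 of 6 were positive. The choroid plexus score overlapped, from -1.28 to 0.67 in SAMR1 and from -0.54 to 1.01 in sedentary SAMP8. In exercised SAMP8 it ran from -1.01 to 1.00. Over all genes, 3.03% passed in sedentary SAMP8 against SAMR1. The part of these markers in the Ngfr values was not tested. In exercised SAMP8 against SAMR1, where Ngfr had 0.29 and did not pass, Lum (0.65), Dcn (0.77), Col1a1 (0.79) and Aqp1 (1.07, adjusted p = 0.0236) passed and Zic1 (0.22) did not. The genes most like Ngfr over the 15 arrays were Resp18 (Pearson r = 0.82), Rps13 (0.79) and Gad2 (0.78), of which Gad2 makes the inhibitory transmitter GABA.

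Sort1, the sorting receptor sortilin, had differences near 0 in the mean of its 4 features. They were 0.00, 0.04 and 0.04, with 95% intervals of -0.16 to 0.17, -0.13 to 0.20 and -0.13 to 0.20. The mean lay between 9.90 and 10.19 on all arrays. Its brightest feature went another way in exercised SAMP8, at 13.78, 13.42, 13.33, 13.60 and 13.56 against 13.16, 13.15, 13.31, 13.21 and 13.05 in sedentary SAMP8 and 13.15, 13.34, 13.05, 13.49 and 13.13 in SAMR1. All exercised arrays lay above all sedentary SAMP8 arrays, and SAMR1 overlapped both. The difference of 0.36 ± 0.10 between exercised and sedentary SAMP8 did not pass (adjusted p = 0.601). It was the 1 of 51 features without overlap in that comparison, against 1.11% of all features, and the other Sort1 features had 0.03, -0.08 and -0.17. The genes most like that feature were Ddhd1 (Pearson r = 0.94), Mgrn1 (0.92) and Pik3ca (0.92).

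Gfra1, the Gdnf co-receptor, averaged 7.34, 6.93, 7.54, 7.12 and 7.13 in SAMR1, 7.54, 7.41, 7.25, 7.14 and 7.26 in sedentary SAMP8, and 7.20, 7.32, 7.56, 7.24 and 6.70 in exercised SAMP8. The groups overlapped, and the mean of the 2 features lay below the median of all features on every array. The differences were 0.11, -0.12 and -0.01, with 95% intervals of -0.20 to 0.43, -0.43 to 0.20 and -0.32 to 0.31, and adjusted p of 0.797, 0.910 and 0.993. The most similar genes over the 15 arrays were Tmcc2 (Pearson r = 0.86), Zfp41 (0.85) and Wsb2 (0.83) for Gfra1, and Tbc1d16 (0.81), Aqp4 (0.80) and Grm5 (0.79) for Gdnf. For Bdnf they were Kcnf1 (0.78), Nup50 (0.75) and Nr4a2 (0.74), the last a member of the activity-induced list. These correlations describe the 15 arrays, which share strain and exercise differences.

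By the brightest feature of each gene, the enzymes that cut proneurotrophins, with their inhibitors, were the list around the pathway with the most calls. That ranking did not hold with the mean of all features of a gene, where Pcsk1 and Plat did not pass. Against SAMR1, exercised SAMP8 had the calls: 3 of 12 measured genes rose and 0 fell, against 2.8% of all genes higher, and the list's median was 0.04. Serpini1, the neuronal inhibitor of tissue plasminogen activator, read 14.16, 13.98, 14.34, 14.26 and 14.09 in SAMR1 and 14.54, 14.32, 14.56, 14.58 and 14.61 in exercised SAMP8, and rose by 0.36 ± 0.079 (adjusted p = 0.0175). Only exercised replicate 12 fell below the highest SAMR1 array. Pcsk1, a prohormone convertase, read 9.07, 9.06, 8.82, 9.07 and 9.20 in SAMR1 and 9.50, 9.21, 9.39, 9.43 and 9.44 in exercised SAMP8, and rose by 0.35 ± 0.090 (adjusted p = 0.0390). The groups were separate, by a narrow margin at exercised replicate 12, and its other, dimmer feature had 0.00.

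Plat, tissue plasminogen activator, which starts the plasmin cleavage of proBdnf, read 10.31, 10.79, 10.21, 9.98 and 10.07 in SAMR1 and 10.71, 10.65, 10.61, 11.23 and 11.07 in exercised SAMP8. It rose by 0.58 ± 0.16 (adjusted p = 0.0497), with the groups overlapping through SAMR1 replicate 2, and centring each array on its median gave an adjusted p of 0.0510. Its other features had 0.37 and -0.04. With the mean of all features of a gene, Pcsk1 had 0.18 (adjusted p = 0.383) and Plat 0.30 (0.0552). In the limma fit over all features, the brightest features of Pcsk1 (adjusted p = 0.0550) and Plat (0.0621) missed the threshold. The Serpini1 feature passed there (0.0271). The Plat call held without SAMR1 replicate 2 (adjusted p = 0.00772) or exercised replicate 13 (0.0493) and was lost without any other single array, with adjusted p up to 0.125. The Pcsk1 call was lost without 9 of the 15 arrays, SAMR1 replicates 1 to 4, SAMP8 replicate 9 and exercised replicates 11, 13, 14 and 15, with adjusted p up to 0.0998. The Serpini1 call held without each array in turn. With only those groups in the fit all 3 calls were lost, with adjusted p of 0.0652 for Serpini1, 0.0635 for Pcsk1 and 0.111 for Plat. In sedentary SAMP8 against SAMR1 0 of 12 passed in limma, with 4 at an unadjusted p under 0.05 (14.3% of all genes). The convertase gene Furin had 0.46 ± 0.16 there (adjusted p = 0.183) and Serpini1 0.22 (0.198). Pcsk1 had 0.23 and Plat 0.39 in the same comparison. On the sedentary SAMP8 arrays Serpini1 ran from 14.34 to 14.45, Pcsk1 from 9.08 to 9.41 and Plat from 10.51 to 10.87. Exercised minus sedentary SAMP8 was 0.12 for Pcsk1 and 0.20 for Plat. Over all SAMP8 arrays against SAMR1, Serpini1 had 0.29, Pcsk1 0.29 and Plat 0.48. In exercised against sedentary SAMP8 0 of 12 passed or had an unadjusted p under 0.05; Plg, the plasminogen gene, had -0.70 ± 0.39 (adjusted p = 0.726) at a signal under the lower quartile on all 15 arrays, and Serpini1 0.14 (0.744).

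The signalling genes downstream of Trk and p75 gave no call by their brightest features. Of 29 measured, 0 passed in limma in any comparison, and the list's medians were 0.00, 0.01 and -0.03. In the 3 comparisons 1, 2 and 5 had an unadjusted p under 0.05, against 14.3%, 7.08% and 18.2% of all genes. With the mean of all features of a gene, the exchange factor gene Sos1 was lower in sedentary SAMP8 (-0.48, adjusted p = 0.00717) and exercised SAMP8 (-0.36, 0.0368) than in SAMR1, and Pik3r1, a subunit of phosphoinositide 3-kinase, was lower in exercised SAMP8 (-0.40, 0.0355); their brightest features had 0.02, 0.02 and -0.12. The kinase gene Mapk7 had -0.21 ± 0.07 in sedentary SAMP8 against SAMR1 (adjusted p = 0.157) and Akt1, a survival kinase, had -0.19 ± 0.10 (0.386). Camk4, a calcium-dependent kinase, had -0.58 ± 0.14 in exercised against sedentary SAMP8 (adjusted p = 0.521) and -0.40 ± 0.14 in exercised SAMP8 against SAMR1 (0.130). The receptor gene Rtn4r, a partner of p75, had 0.31 ± 0.14 and 0.44 ± 0.14 in those comparisons (adjusted p = 0.704 and 0.109).

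The other neurotrophin ligands and receptors gave 8 measured genes, of which 0 passed in limma in any comparison, and the medians were 0.05, 0.01 and -0.00. Of the 8, 0, 1 and 0 had an unadjusted p under 0.05, against 14.3%, 7.08% and 18.2% of all genes. Sorl1, a sortilin relative, had -0.44 ± 0.15 in exercised against sedentary SAMP8 (adjusted p = 0.596), 0.18 in sedentary SAMP8 against SAMR1 (0.626) and -0.26 in exercised SAMP8 against SAMR1 (0.382). Bex3, which binds the p75 receptor, had 0.17 (adjusted p = 0.498) and -0.13 (0.794) in the first pair of comparisons. Sorcs2, another sortilin relative, had 0.16 in exercised SAMP8 against SAMR1 (adjusted p = 0.300). The ligand gene listed as Ntf5, known now as Ntf4, lay under the lower quartile on 14 of 15 arrays.

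Of 7 other genes of the GDNF family 0 passed in limma in any comparison, and the medians were -0.02, -0.10 and -0.07. In each comparison 1 had an unadjusted p under 0.05, against 14.3%, 7.08% and 18.2% of all genes. The ligand gene Nrtn had 0.27 ± 0.09 in sedentary SAMP8 against SAMR1 (adjusted p = 0.138), -0.12 in exercised against sedentary SAMP8 (0.782) and 0.15 in exercised SAMP8 against SAMR1 (0.394). Ncam1, an adhesion molecule that serves as an alternative Gdnf receptor, had 0.22 ± 0.09 (adjusted p = 0.679) and 0.20 (0.258) in the latter pair. Pspn, another ligand, had 0.77 ± 0.42 in sedentary SAMP8 against SAMR1 (adjusted p = 0.435) and lay under the lower quartile on all 15 arrays. Ret, the signalling receptor of the family, did so on 14 of 15.

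Of 14 other neurotrophic factors and receptors 0 passed in limma in any comparison, and the medians were 0.02, 0.00 and 0.03. In each comparison 2 had an unadjusted p under 0.05, against 14.3%, 7.08% and 18.2% of all genes. In sedentary SAMP8 against SAMR1, the growth factor gene Igf1 had 0.23 ± 0.10 (adjusted p = 0.308) and Manf 0.32 ± 0.14 (0.317). In exercised against sedentary SAMP8, Cntfr, the receptor of ciliary neurotrophic factor, had -0.54 ± 0.19 (adjusted p = 0.618) and Met, the receptor of hepatocyte growth factor, 0.33 ± 0.15 (0.687). Against SAMR1, in exercised SAMP8, the cytokine receptor gene Lifr had -0.78 ± 0.26 (adjusted p = 0.110) and Met 0.43 ± 0.15 (0.128).

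**Figure D5:**
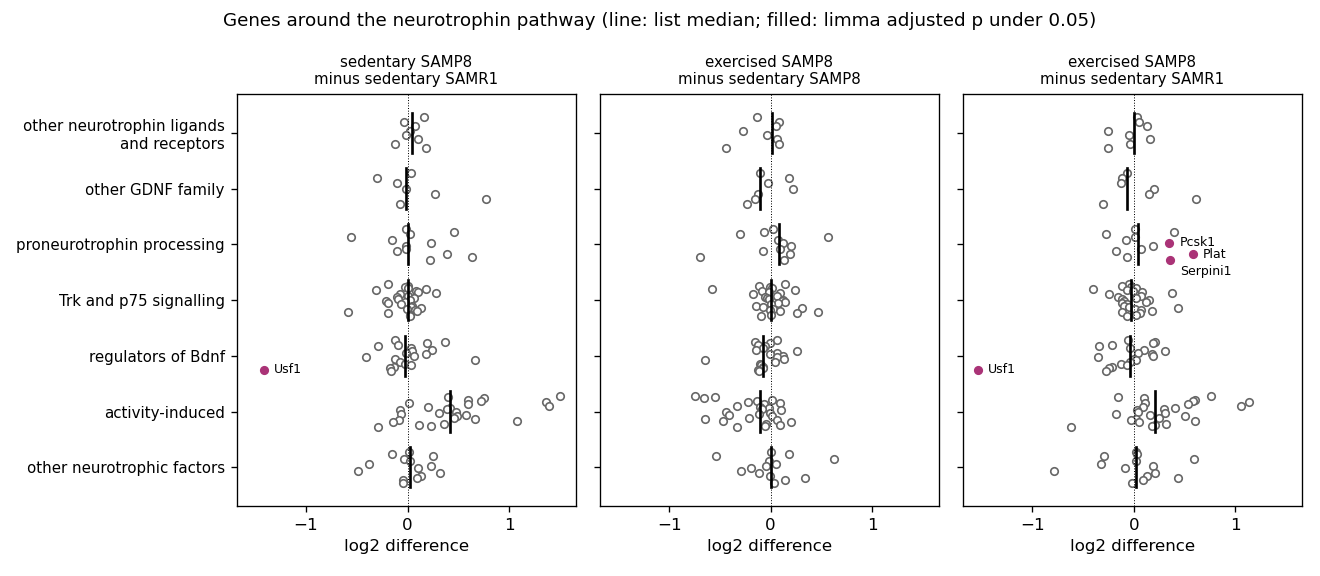
Log2 difference of each gene (its brightest feature) in 7 lists around the pathway, in the 3 comparisons; lines are list medians and filled, named circles passed at an adjusted p under 0.05. Usf1 lies at -1.41 and -1.53 in the comparisons with SAMR1, and the activity-induced median lies at 0.42 and 0.21.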

How the data were processed

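RNA of 15 cortex samples was labelled with Cy3 and read on one-colour Agilent arrays, per the labels' protocols. Each array has 1 deposited column of linear spot intensity. The submitters' processing notes name limma, without a version or step. Background correction, normalization, slides, scan dates and the build behind the annotation were unstated in the labels and headers. At 96.2% of ranks the arrays differed by under 0.05 on the log2 scale, so the values were taken as normalized and used as log2 without a pseudocount. No column was left unused (0). For arrays the number of replicates limits the precision.

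Of 45220 features, 34479 had values; 27968 had 1 gene symbol, 38 several and 6473 none in the platform annotation, which names no probes. Each feature was fitted with limma 3.58.1 (R 4.3.3, lmFit and eBayes, 3 groups), two-sided, with Benjamini-Hochberg adjustment over all features and a threshold of 0.05. The same fit was run on the mean of each transcript ID's features (20180) and, for lists, on each gene's brightest feature (16401 genes). Single measures were compared by exact permutation in R, and correlations by 100000 permutations in Python 3.11.15 with scipy 1.17.1. Only the limma fit was tested on simulated data, and not the permutations or the averaging per transcript ID.

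Members and lists were chosen with earlier results of these data known. Named were all members, each list gene that passed, the 2 with the smallest p per list and comparison, and the 3 genes most like each member among genes above the lower quartile. Promoter windows and names came from RefSeq (GRCm38.p6); that build was used for nothing else. Alternatives covered normalization, dim features, array weights, the prior, the groups fitted, a pseudocount of 16, several features per gene and each left-out array.

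Beside the marker lists in the results, 0 markers of excitatory neurons (6 measured), inhibitory neurons (6), oligodendrocytes (5), striatum (5) or hippocampus (6) passed in limma by their brightest feature in any comparison. In sedentary SAMP8 against SAMR1, 0, 2, 0, 0 and 2 of them had an unadjusted p under 0.05 (14.3% of all genes). The numbers were 0, 1, 0, 5 and 1 in exercised against sedentary SAMP8 (7.08%). They were 0, 0, 1, 1 and 0 in exercised SAMP8 against SAMR1 (18.2%). All 5 striatal markers were lower in exercised than in sedentary SAMP8, with a median of -0.53. Of microglial markers (5 measured) Aif1 rose by 0.41 in exercised SAMP8 against SAMR1, where 4 of 5 were positive. Of endothelial and mural markers (7 measured) Pdgfrb rose by 0.46 in that comparison. Only 2 of these 7 were positive there, and their median was -0.10. The brightest feature of the myelin gene Mbp lay near the highest intensity of all arrays (65480). The mean of its 12 features had -0.47 in exercised SAMP8 against SAMR1 (adjusted p = 0.0341) and -0.40 over all SAMP8 (0.0340), both past the threshold. The brightest features of Nrgn and Slc1a2 also lay near that limit, at log2 means of 15.99 and 15.91 in SAMR1, so a rise could hardly show. In exercised SAMP8 against SAMR1 Slc1a2 had 0.06 by that feature and -0.25 by the mean of its 5 features (adjusted p = 0.285).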

Additional observations from a re-analysis of the deposited data

Results flagged for a closer look

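One value stood apart within its group. The mean of the 11 Ngfr features on exercised SAMP8 replicate 12 was 7.83, against 6.89 to 7.09 on the other 4 exercised arrays; the gap to the nearest of them was 0.787 of the range of the group, above the critical value of 0.71 for 5 samples. It was the 1 such value among 30 sets of 5 arrays examined, and chance gives about 1 in 20.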

How the results depend on the processing

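No paired analysis was run because the labels give no pairing of arrays between groups. The number of neurotrophin features that passed in sedentary SAMP8 against SAMR1 was 2; it was 6 without the dimmest 30% of features, 7 with a trended and robust prior, 0 with only those groups in the fit, and 0 with 1 feature per gene, with the mean of all features of a gene, or with the mean per transcript ID. It ran from 0 to 4 when each array was left out, with 0 without replicate 1, 4, 5, 6, 7, 8, 13 or 15, 1 without replicate 2 or 3, and 4 without replicate 10 or 12. In exercised SAMP8 against SAMR1 the number was 5; it was 9 without dim features, 9 with the trended prior, 2 with only those groups, 0 with 1 feature per gene, 0 with the mean of all features, and 1 per transcript ID. It ran from 3 to 6 with arrays left out, with 3 without replicate 4, 5, 11 or 12. Averages over a gene mix truncated and full-length Ntrk2 by construction, and fits with fewer features or groups adjust over fewer tests or estimate the spread from fewer arrays; other causes were not tested. Truncated Ntrk2 in sedentary SAMP8 against SAMR1 passed without dim features (0.35, adjusted p = 0.0415), with array weights (0.36, 0.0438) and with the trended prior (0.35, 0.0352), and ran from 0.30 to 0.39 with arrays left out. In exercised SAMP8 against SAMR1 it was 0.42 with only those groups (adjusted p = 0.0507) and ran from 0.37 to 0.46. The difference between the forms in sedentary SAMP8 against SAMR1 ran from 0.37 to 0.56 with arrays left out. List genes that passed numbered 1 in sedentary SAMP8 against SAMR1, 3 with the mean of all features, when Sos1 (-0.48) and Mef2c (-0.67) joined Usf1, and 1 to 2 with arrays left out (2 without replicate 2). In exercised SAMP8 against SAMR1 they numbered 4, also 4 with the mean of all features, when Sos1 (-0.36) and Pik3r1 (-0.40) took the place of Pcsk1 and Plat, 1 with only those groups, and 2 to 4 with arrays left out (2 without replicate 3, 4, 9, 11, 14 or 15). No called value changed sign under any alternative run. Low signal limits Gdnf, Gfra1 and Ngfr.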
